A study of Mus musculus with 6 samples.

Results

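The circadian clock genes described here are 10 genes chosen by name among the 44713 genes that were counted in islet RNA of diabetic and control animals. They comprise the activators Arntl, Clock and Npas2, the repressors Per1, Per2, Per3, Nr1d1 and Nr1d2, and the output factors Dbp and Tef of the PAR bZip family. Reads were counted per gene in rRNA-depleted total RNA of 6 islet libraries, each from 1 mouse, 3 of them db/db and 3 db/m. The db/db mice, labelled Lepr-/-, lack the long signalling form of the leptin receptor in every tissue and develop obesity and diabetes, while db/m littermates, labelled wild type, were the non-diabetic controls. All mice were male, 10 weeks old and on a normal diet, and islets were isolated by collagenase digestion and a density gradient. The labels name the strain C57BL/6, whereas the methods of the study name BKS. The time of day at which the mice were killed is not given in the sources used here, and neither is the light schedule or whether the mice had fed.

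The molecular clock is a feedback loop. ARNTL (also called BMAL1) pairs with CLOCK or NPAS2 on E-box elements and turns on the Per and Cry genes, Nr1d1, Nr1d2, Dbp and Tef. PER and CRY proteins then inhibit that pair, and NR1D1 and NR1D2 (REV-ERBα and REV-ERBβ) repress Arntl through elements shared with the ROR receptors, so that Arntl transcripts peak roughly opposite to those of Nr1d1 and Dbp. In mouse tissues Nr1d1 transcripts peak before Dbp and the Per genes, and Clock transcripts oscillate weakly. In the pancreatic islet this clock is known for timing insulin secretion. A single sample of each mouse holds 1 time point, so that levels of these genes depend on the hour of sampling as well as on the mouse.

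Library totals lay between 15641797 and 20614531 counts. Levels are given as CPM, the counts scaled to a common library size after TMM scaling. The TMM factors ran from 0.605 in db/db mouse 1 to 1.75 in db/m mouse 1. As the smallest level that a library could show, 3 counts were taken, which was between 0.110 and 0.241 CPM. Genes of the acinar cells that make digestive enzymes took from 53.19% (95% Clopper-Pearson interval, 53.16% to 53.21%, counting error alone) of the reads in db/m mouse 1 to 75.60% (75.59% to 75.62%) in db/db mouse 1. The 28 tested acinar markers took 69.4% to 75.6% of reads in db/db mice and 53.2% to 67.8% in db/m mice, and 27 of them had higher values in db/db mice, 2 at an unadjusted p under 0.05, against 5.04% of all tested genes. The 18 β-cell markers took 0.154% to 0.656% in db/db mice and 0.793% to 4.50% in db/m mice, and 16 of the 18 were lower at an unadjusted p under 0.05, against 9.89% of all tested genes. Markers of duct, endothelial, stromal and white blood cells each took at most 0.02245% of the reads of any library. No marker of these lists was at 0 in every mouse. Insulin genes alone took 3.75% of the reads of db/m mouse 1, which stood apart, against 0.605% and 0.649% in the other db/m mice and 0.122% to 0.502% in db/db mice. These libraries labelled as islets thus held mostly acinar transcripts. The study reports insulin staining done to show that the islets were free of acinar cells, in which isolated cells were mostly positive. A share of reads is not a share of cells. Fits with marker scores as covariates are given for some of the genes, both where they shrink and where they enlarge a difference. What part these differences in marker reads have in the other values was not tested. In such bulk RNA fewer cells of a type cannot be told apart from less RNA per cell. Lepr had 4, 10 and 68 counts in db/db mice and 37, 25 and 8 in db/m mice, and these gene-level counts do not check the genotype, since the db mutation alters splicing. The mouse numbers come from the titles and carry no stated meaning beyond naming a mouse of its group.

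Promoter sequence from RefSeq (GRCm38.p6, the same build as mm10), from 250 bases before to 50 bases after each annotated start, was at hand for 9 of the 10 genes. It was searched on both strands for the E-box CACGTG, its variant CACGTT, the D-box forms TTATGTAA and TTACGTAA that PAR bZip factors bind, the cAMP element TGACGTCA, and TAGGTCA, the core of the element shared by REV-ERB and ROR receptors. At least 1 of these was found in 5 of the 9, namely Arntl, Per1, Per3, Nr1d1 and Tef. Among 13 other genes of the loop with a promoter at hand, 8 held at least 1, namely Bhlhe41, Cry1, Cry2, Gm129, Hlf, Nfil3, Rorb and Timeless. Stretches are shown for the 5 clock genes, because the loop described above runs through these elements, and for Gm129, Bhlhe41 and Nfil3, which were picked from the 8 after their values were seen. Each is written 5′ to 3′ along the gene's own strand with the match in capitals, in the order E-box, variant E-box, D-box and receptor element.
Per1, chr11:69098768-69098807, + strand: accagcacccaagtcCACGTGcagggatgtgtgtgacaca
Tef, chr15:81802531-81802570, + strand: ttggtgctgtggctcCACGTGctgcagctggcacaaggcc
Gm129, chr3:95882254-95882303, - strand: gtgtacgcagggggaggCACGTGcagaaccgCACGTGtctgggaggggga
Bhlhe41, chr6:145865549-145865588, - strand: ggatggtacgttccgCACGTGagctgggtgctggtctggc
Nr1d1, chr11:98775384-98775423, - strand: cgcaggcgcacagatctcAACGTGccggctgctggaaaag
Per3, chr4:151044807-151044879, - strand: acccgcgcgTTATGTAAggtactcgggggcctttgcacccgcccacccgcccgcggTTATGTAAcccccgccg
Arntl, chr7:113207531-113207558, + strand: aggcagaaagTAGGTCAgggacggaggt
Nfil3, chr13:52981040-52981069, - strand: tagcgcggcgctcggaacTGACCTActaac

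Of all 32851 promoter windows of this length, 7.15% held CACGTG, 4.68% CACGTT, 0.938% TTATGTAA, 0.119% TTACGTAA, 1.79% TGACGTCA and 2.61% TAGGTCA. Per3 held TTATGTAA at 2 places, Gm129 held CACGTG at 3 places of which 2 are shown, and Tef held CACGTG in the windows of both of its annotated starts. The match in Arntl lies 30 bases after the start of 1 of its 2 annotated starts. The share of all windows with at least 1 of these motifs was not counted. Genes with more than 1 annotated start also had more than 1 window searched. The 5 of 9 and 8 of 13 genes above thus cannot be set against the shares of single motifs. These are matches of letters and not measured sites, and a motif not found in these windows may lie elsewhere in the gene.

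Among the activators, Arntl was near the limit of detection, Clock was even across all 6 mice after TMM scaling, and Npas2 was hardly detected. Arntl, the partner that CLOCK and NPAS2 both need, lies on chromosome 7 from 113207465 to 113314126. It had 0, 22 and 5 counts in db/db mice 1, 2 and 3 and 19, 29 and 0 counts in db/m mice 1, 2 and 3, that is 0, 1.31 and 0.336 CPM against 0.697, 1.69 and 0 CPM. The mouse numbered 2 was the highest of its group in both groups, 1 mouse of each group had no read, and the groups overlapped. A count of 0 allows up to 0.241 CPM in db/db mouse 1 and 0.162 CPM in db/m mouse 3. Of the mice with 0 counts, db/db mouse 1 had the largest library total of all 6 mice (20614531 counts). For Arntl edgeR gave a log2 fold change between db/db and db/m mice of -0.47 with an SE of 1.28 (adjusted p = 0.888). With counts this low and mice of a group this far apart, even a change of several fold would not have been detectable.

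Clock, on chromosome 5 from 76209868 to 76304792, had 39.3, 38.9 and 40.8 CPM in db/db mice and 30.3, 38.2 and 43.4 CPM in db/m mice. After TMM scaling its groups overlapped and it varied less than most genes. Its evenness rests on that scaling. Before it, Clock had 490 counts in db/db mouse 1, the largest library by total, and 826 in db/m mouse 1, the smallest. In edgeR its log2 fold change was 0.09 with an SE of 0.22 (adjusted p = 0.878), and it was -0.44 with library size in place of TMM scaling, a setting that moved the median of all genes from -0.0009 to -0.59. Npas2, which can stand in for Clock and lies on chromosome 1 from 39193731 to 39363236, had 0, 3 and 5 counts in db/db mice and 0, 3 and 1 counts in db/m mice. Only db/db mouse 3 was above 3 counts, and the gene did not pass the filter on low counts, so that 9 of the 10 clock genes were tested.

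The Period genes encode the inhibitors that accumulate with the CRY proteins. Per1, which also responds rapidly to hormones and cAMP, lies on chromosome 11 from 69095217 to 69109960. It had 49.0, 21.1 and 37.4 CPM in db/db mice and 65.8, 93.8 and 65.2 CPM in db/m mice. All db/db mice were below all db/m mice, and Per1 was the 1 tested clock gene of 9 whose groups did not overlap, against 21.1% of all tested genes. The mean level was 35.8 ± 14.03 CPM (SD, n = 3) in the db/db group and 74.9 ± 16.3 CPM (SD, n = 3) in the db/m group. Its log2 fold change was -1.07 with an SE of 0.33, and edgeR gave an unadjusted p of 0.0101 and an adjusted p of 0.178. Over 16 other settings it lay between -1.71 and -0.57 and the adjusted p between 0.0329 and 0.571. The smallest difference, -0.57 with an unadjusted p of 0.123 from edgeR, was obtained without the mice numbered 2, of which db/db mouse 2 had the lowest Per1 level of all and db/m mouse 2 the highest. Without db/m mouse 1, the library with the most insulin reads, the difference was -1.13 with an unadjusted p of 0.0109 from edgeR, and with the acinar score in the model it was -1.47.

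Per2, whose loss disturbs behavioural rhythms, lies on chromosome 1 from 91415982 to 91459324. It had 46.8, 6.22 and 36.3 CPM in db/db mice and 22.4, 51.7 and 42.5 CPM in db/m mice. The low value was that of db/db mouse 2, at a level 7.53-fold below the highest mouse of its group, whereas db/m mouse 2 was the highest of all 6. For Per2 the log2 fold change was -0.39 with an SE of 0.60 (edgeR, adjusted p = 0.799), and without the mice numbered 2 it was 0.39. With the acinar score in the model it was -1.45 (edgeR, unadjusted p = 0.0580). With the score of general endocrine genes it was -1.54 (edgeR, unadjusted p = 0.0621). Per3 lies on chromosome 4 from 151003652 to 151044665, wholly inside the span of Camta1 on the same strand. It had 19.1, 5.68 and 19.7 CPM in db/db mice and 16.3, 8.39 and 24.7 CPM in db/m mice. Here the mouse numbered 2 was the lowest of its group in both groups, and the other 4 mice lay close together. The difference between groups was -0.16 on the log2 scale with an SE of 0.50 (edgeR, adjusted p = 0.903).

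The receptors Nr1d1 and Nr1d2 repress Arntl and act largely as substitutes for each other, and they differed in pattern. Nr1d1 lies on chromosome 11 from 98767932 to 98775333 and had 6.58, 7.29 and 3.97 CPM in db/db mice and 34.1, 5.07 and 27.6 CPM in db/m mice. db/m mice 1 and 3 were above all others, while db/m mouse 2 lay within the db/db values, so that the groups overlapped. Mean levels were 5.95 ± 1.75 CPM (SD, n = 3) in the db/db group and 22.2 ± 15.2 CPM (SD, n = 3) in the db/m group. For Nr1d1 the log2 fold change was -1.90 with an SE of 0.59, and edgeR gave an unadjusted p of 0.0102 and an adjusted p of 0.178. It lay between -2.62 and -1.42 over 16 other settings, with adjusted p from edgeR or DESeq2 between 0.000198 and 0.531. Without db/m mouse 2 the adjusted p was 0.0389, whereas with the acinar marker score in the model edgeR gave an unadjusted p of 0.0690. Without db/m mouse 1, one of the pair with high levels, Nr1d1 was at -1.42 with an unadjusted p of 0.0363 from edgeR. Nr1d1 shares 1075 bases at its 3′ end with Thra, the thyroid hormone receptor gene on the other strand, and since the use of strand in counting is not stated, reads there cannot be assigned to 1 of them. Thra itself had 6.98, 9.81 and 9.62 CPM in db/db mice and 13.1, 13.5 and 7.15 CPM in db/m mice, and was lowest of the db/m group in mouse 3, where Nr1d1 was at 27.6 CPM.

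Nr1d2, on chromosome 14 from 18204054 to 18239127, had 75.0, 18.9 and 44.2 CPM in db/db mice and 33.9, 24.9 and 72.0 CPM in db/m mice. The mouse numbered 2 was again the lowest in both groups, and the groups covered nearly the same range. For Nr1d2 the log2 fold change was 0.08 with an SE of 0.52 (edgeR, adjusted p = 0.958), and it was -0.57 with library size in place of TMM scaling.

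Dbp and Tef encode PAR bZip transcription factors, which carry the rhythm to genes with D-box elements. Dbp lies on chromosome 7 from 45705088 to 45710203 and had 12.0, 1.43 and 7.87 CPM in db/db mice and 8.96, 2.33 and 19.7 CPM in db/m mice. The mouse numbered 2 was the lowest of its group in both groups, and the highest mouse was 8.39-fold above it in db/db mice and 8.46-fold in db/m mice. For Dbp edgeR gave a log2 fold change of -0.55 with an SE of 0.79 (adjusted p = 0.779). With the acinar score in the model edgeR gave -1.39 (unadjusted p = 0.196), and with the score of general endocrine genes -1.72 (unadjusted p = 0.0878). The last 737 bases of Dbp overlap Sphk2 on the other strand, which had 7.0 to 26.5 CPM in db/db mice and 16.5 to 18.5 CPM in db/m mice. In both mice numbered 2, Sphk2 was the highest of its group while Dbp was the lowest. Tef lies on chromosome 15 from 81802421 to 81826863 and had 1.85, 1.14 and 4.57 CPM in db/db mice and 1.87, 1.16 and 4.71 CPM in db/m mice. The 3 values of each group nearly coincided number by number, with the mouse numbered 2 lowest, and the log2 fold change was -0.03 with an SE of 0.65 (edgeR, adjusted p = 0.988).

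**Figure D1:**
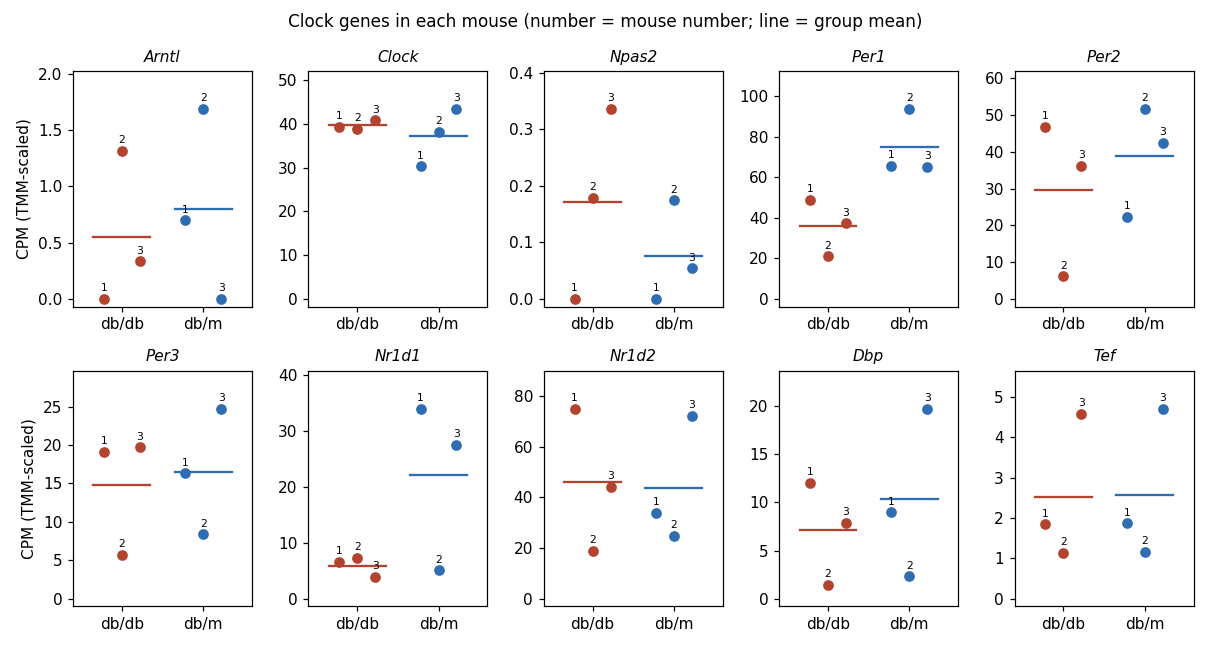
Level of each of the 10 clock genes in each mouse, in CPM after TMM scaling, with db/db mice in red and db/m mice in blue. Each point is 1 mouse with its number, and the line is the mean of the group. Per1 is lower in all db/db mice, Nr1d1 is high in db/m mice 1 and 3, and in Per3, Nr1d2, Dbp and Tef the mouse numbered 2 is the lowest of both groups, whereas in Arntl it is the highest.

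Levels were compared between genes per kilobase of exon, from GENCODE exon lengths. Per1 had the highest median over the 6 mice, at 10.1 CPM per kilobase, followed by Nr1d2 at 7.22, Per2 at 6.72, Clock at 2.85, Dbp at 2.81, Nr1d1 at 2.26 and Per3 at 1.84 CPM per kilobase. Tef at 0.236, Arntl at 0.0687 and Npas2 at 0.0239 CPM per kilobase were far lower. The ranges of each pair of neighbours in this order overlapped, as for Per1 (3.74 to 16.7 CPM per kilobase) and Nr1d2 (3.50 to 13.9 CPM per kilobase). Repressor transcripts thus exceeded those of Arntl in every mouse, also where Arntl was highest.

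Between db/db and db/m mice, 0 of the 9 tested clock genes had an adjusted p under 0.05 by edgeR's quasi-likelihood test, where 0.619% of all 12760 tested genes did. DESeq2 gave 1, which was Nr1d1 (adjusted p = 0.0263), where it gave 5.55% of all genes that it assigned an adjusted p. At an unadjusted p under 0.05, 2 of 9 were lower in db/db mice, Per1 and Nr1d1, against 9.89% of all tested genes, and 0 of 9 were higher, against 5.04%. In number 7 of the 9 had a negative log2 fold change, as did 50.1% of all tested genes. The median log2 fold change of the 9 genes was -0.39, against -0.0009 for all tested genes. Without both mice numbered 2, which left 8 clock genes, the clock median came to -0.02. The acinar score in the model gave -0.75 and the endocrine score -0.97, with all tested genes at -0.04 and -0.03. Library size alone gave -0.90, with all tested genes at -0.59. The clock median turned positive without db/db mouse 2 (0.10) and without db/m mouse 3 (0.23). In the remaining settings it lay between -0.55 and -0.28. Only for Per1 did the spread between mice leave the groups apart, and for Arntl, Clock, Per2, Per3, Nr1d2, Dbp and Tef the difference was smaller than its standard error.

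**Figure D2:**
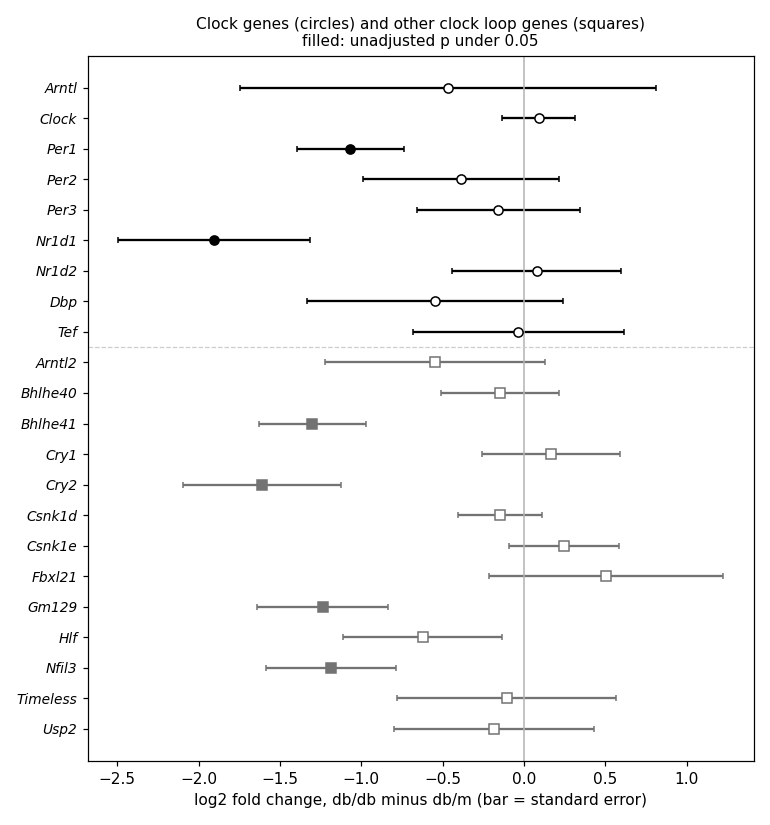
Log2 fold change between db/db and db/m mice on the horizontal axis, with its standard error from edgeR as the bar, for the 9 tested clock genes (circles) and 13 other tested genes of the clock loop (squares). Filled symbols had an unadjusted p under 0.05 and are Per1, Nr1d1, Bhlhe41, Cry2, Gm129 and Nfil3, all of them lower in db/db mice.

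The mice of a group differed from each other in most of these genes more than the groups did. The SD within groups of log2(CPM + 1) was 1.30 for Dbp, 1.13 for Per2, 1.02 for Nr1d1, 0.877 for Nr1d2 and 0.838 for Per3. The median of this SD over the 11558 tested genes with a mean of at least 1 CPM was 0.333. Dbp stood at percentile 99.6 of those genes, Per2 at 99.2, Nr1d1 at 98.7, Nr1d2 at 97.1, Per3 at 96.5 and Tef at 93.3. Arntl, whose mean was below 1 CPM, stood at percentile 91.2 of the same genes and had 0 counts in 2 mice, so that counting error adds to its spread. Per1 stood at percentile 75.7. Clock stood at percentile 12.9, with an SD of 0.182, and was the most even of the 9 after TMM scaling.

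**Figure D3:**
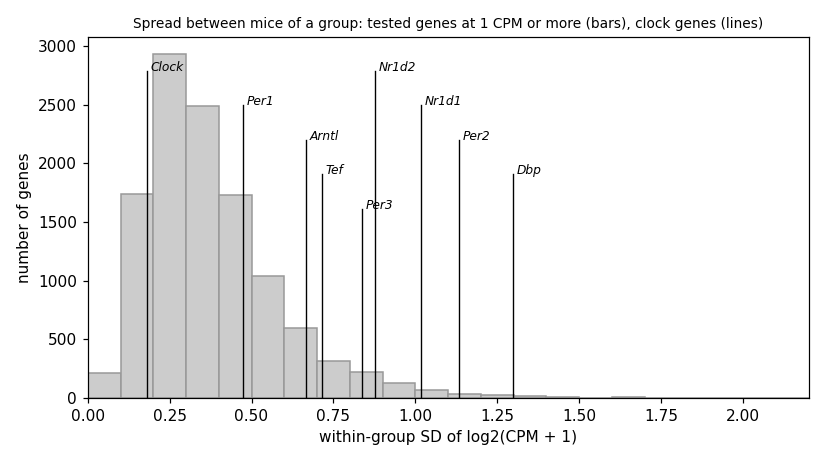
Number of genes (vertical axis) by the SD between mice of the same group of log2(CPM + 1) (horizontal axis), for 11558 tested genes with a mean of at least 1 CPM. Lines mark the 9 tested clock genes. Clock, at 0.182, lies on the left side of the distribution and Dbp, at 1.30, in its right tail.

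In 4 of the 9 tested clock genes, Per3, Nr1d2, Dbp and Tef, the mouse numbered 2 was the lowest of its group both in db/db and in db/m mice, which was so for 7.28% of all tested genes. In 1 of the 9, Arntl, it was the highest in both groups, as for 7.26% of all tested genes. Per1 and Per2 followed another order, since db/db mouse 2 was the lowest and db/m mouse 2 the highest of its group. In Nr1d1 the mouse numbered 2 was the highest db/db mouse but the lowest db/m mouse. The likeness of the mice numbered 2 was noticed in these values and was not tested, and the fits without both of them were added after it was seen.

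Ratios of 2 genes within a library do not depend on how the library is scaled. Relative to Clock, counts of Dbp were 0.306, 0.0369 and 0.193 in db/db mice 1, 2 and 3 and 0.295, 0.061 and 0.454 in db/m mice 1, 2 and 3. Counts of Nr1d2 relative to Clock were 1.91, 0.487 and 1.08 in db/db mice and 1.12, 0.651 and 1.66 in db/m mice, and those of Per3 were 0.486, 0.146 and 0.483 in db/db mice and 0.539, 0.220 and 0.570 in db/m mice. All 3 ratios were lowest in the mouse numbered 2 of each group and overlapped between the groups. The mean log2 ratio of the 7 repressor and output genes to Clock was -1.17, -2.79 and -1.44 in db/db mice and -0.81, -1.86 and -0.65 in db/m mice. With Arntl as denominator and 0.5 counts added, the mean log2 ratio was 8.77, 2.06 and 5.34 in db/db mice and 4.60, 2.62 and 10.003 in db/m mice. The lowest of these means were again those of the mice numbered 2, and the highest belonged to the mice without an Arntl read, where the value rests on the added 0.5 counts.

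Between the groups, the log2 ratios to Arntl of the 7 genes differed by -1.30 for Nr1d1 to 0.26 for Nr1d2, with SDs within groups of 2.60 to 4.59. Two-sided exact permutation tests over the mice gave p from 0.7 to 1, and 1 after adjustment over the 7 ratios. Relative to Clock, the log2 ratio of Per1 had a mean of -0.23 ± 0.61 (SD, n = 3) in the db/db group and 0.9998 ± 0.37 (SD, n = 3) in the db/m group. The groups did not overlap in this ratio (two-sided exact permutation test, p = 0.1, and 0.7 adjusted over the 7 ratios), where 0.1 is the lower limit for 3 mice against 3. The log2 ratio of Nr1d1 to Clock had a mean of -2.78 ± 0.50 (SD, n = 3) in the db/db group and -1.13 ± 1.59 (SD, n = 3) in the db/m group (exact permutation test, p = 0.3). For the other 5 genes the difference in this ratio lay between -0.84 and -0.09, with exact permutation p from 0.5 to 0.9.

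**Figure D4:**
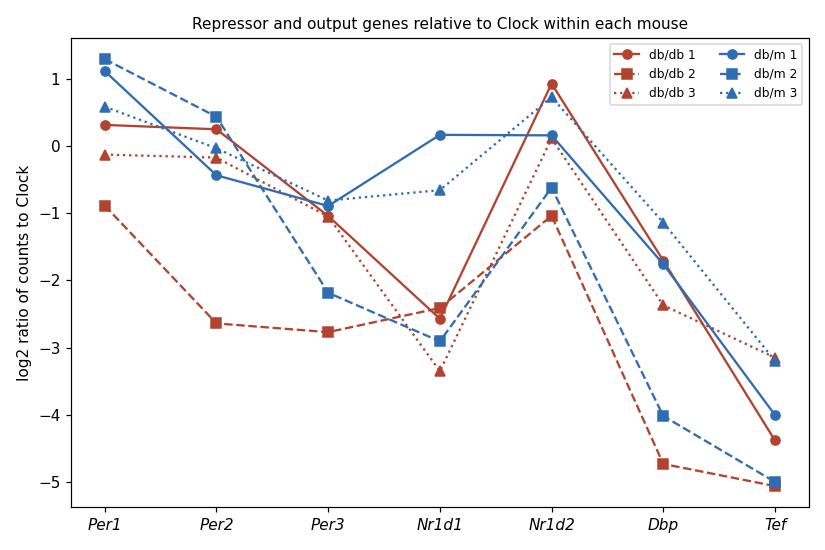
Log2 ratio of the counts of 7 repressor and output genes to the counts of Clock in the same mouse, with 0.5 counts added to each. Red lines are db/db mice, blue lines db/m mice, and dashed lines with squares are the mice numbered 2, which lie lowest in Per3, Nr1d2, Dbp and Tef. In Per1 the 3 db/m mice lie above the 3 db/db mice, and in Nr1d1 only db/m mice 1 and 3 lie apart.

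The rest of the clock loop was taken from a list of 17 genes, of which 16 were in the table (Ciart only under its older name Gm129) and 13 were tested. Of the 13, 4 were lower in db/db mice at an unadjusted p under 0.05 (9.89% of all tested genes) and 0 higher (5.04%). By edgeR 0 of the 13 had an adjusted p under 0.05 (0.619% of all tested genes), and by DESeq2 2 had, Cry2 and Bhlhe41 (5.55%). Their median log2 fold change was -0.18. Groups did not overlap in 3 of the 13, Bhlhe41, Gm129 and Nfil3, all lower in db/db mice. Of all tested genes 21.1% did not overlap, and 12.6% did not overlap and were lower. Bhlhe41 (DEC2), a repressor that competes for E-boxes, had 4.25, 2.21 and 4.30 CPM in db/db mice and 9.76, 7.05 and 9.64 CPM in db/m mice. The groups did not overlap, and the log2 fold change was -1.30 with an SE of 0.33 (edgeR, adjusted p = 0.113). Over 16 other settings the fold change lay between -1.96 and -1.04. The unadjusted p from edgeR or DESeq2 was at most 0.0125 there, and the adjusted p lay between 0.0180 and 0.346. Gm43909 lies over 1876 bases of Bhlhe41 on the other strand. Cry2, which binds PER proteins and inhibits the activators, had 11.6, 17.4 and 27.3 CPM in db/db mice and 70.4, 79.9 and 21.8 CPM in db/m mice. db/m mouse 3 lay within the db/db values, and the log2 fold change was -1.61 with an SE of 0.49 (edgeR, adjusted p = 0.166). When the score of general endocrine genes was added to the model, edgeR gave -0.63 and an unadjusted p of 0.247, and with the acinar score it gave -1.01 and an unadjusted p of 0.0989. Without db/m mouse 3 the adjusted p from edgeR was 0.0379, and without both mice numbered 2 the unadjusted p was 0.0943. D930015M05Rik, which lies over 23417 bases of Cry2 on the other strand, had at most 3 counts in any mouse.

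Gm129 (Ciart, or CHRONO), a repressor whose promoter is shown above, had 2.73, 2.09 and 2.82 CPM in db/db mice and 3.82, 4.78 and 9.47 CPM in db/m mice. Its groups did not overlap, the log2 fold change was -1.24 with an SE of 0.40 (edgeR, adjusted p = 0.194), and C920021L13Rik lies over the whole gene on the other strand. Without db/m mouse 3 it was -0.74, with an unadjusted p of 0.0778 from edgeR, and without both mice numbered 2 the unadjusted p was 0.0547. Nfil3 (E4BP4), which binds D-boxes in opposition to the PAR bZip factors, had 6.58, 15.6 and 8.67 CPM in db/db mice and 16, 35.7 and 18.8 CPM in db/m mice. It was highest in the mouse numbered 2 of both groups, where Dbp and Tef were lowest. For Nfil3 the log2 fold change was -1.19 with an SE of 0.40 (edgeR, adjusted p = 0.214), and its groups were barely apart, with db/db mouse 2 at 15.6 and db/m mouse 1 at 16 CPM. Its unadjusted p of 0.0158 from edgeR became 0.0892 with the endocrine score in the model (-0.90), 0.0868 without db/m mouse 2 (-0.73), 0.0578 without db/db mouse 1 and 0.0590 without db/db mouse 3.

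Cry1, which peaks later than the other repressors, had 17.7, 8.25 and 14.8 CPM in db/db mice and 6.72, 19.9 and 9.75 CPM in db/m mice, and its order of mice was that of Per2 in both groups. Hlf, the third PAR bZip factor, had 1.28, 0.658 and 1.01 CPM in db/db mice and 1.61, 1.22 and 1.68 CPM in db/m mice and was lowest in the mouse numbered 2 of both groups, like Dbp and Tef. Of the 13 tested other loop genes, 2 were lowest in both mice numbered 2, Hlf and Bhlhe41 (7.28% of all tested genes). Only 1, Nfil3, was highest in both (7.26%). Usp2, a clock-driven deubiquitinase gene, had 36.0, 7.47 and 37.0 CPM in db/db mice and 11.4, 47.4 and 32.7 CPM in db/m mice, the same order of mice as Per2 except for mice 1 and 3 of the db/db group. The log2 fold changes of Cry1, Hlf and Usp2 were 0.17, -0.62 and -0.18, with adjusted p from 0.580 to 0.907 by edgeR. Cry1 was at -0.38 with library size in place of TMM scaling. Usp2 was at -1.30 with the acinar score in the model (edgeR, unadjusted p = 0.0578). With the endocrine score Usp2 was at -1.22 (edgeR, unadjusted p = 0.133).

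**Figure D5:**
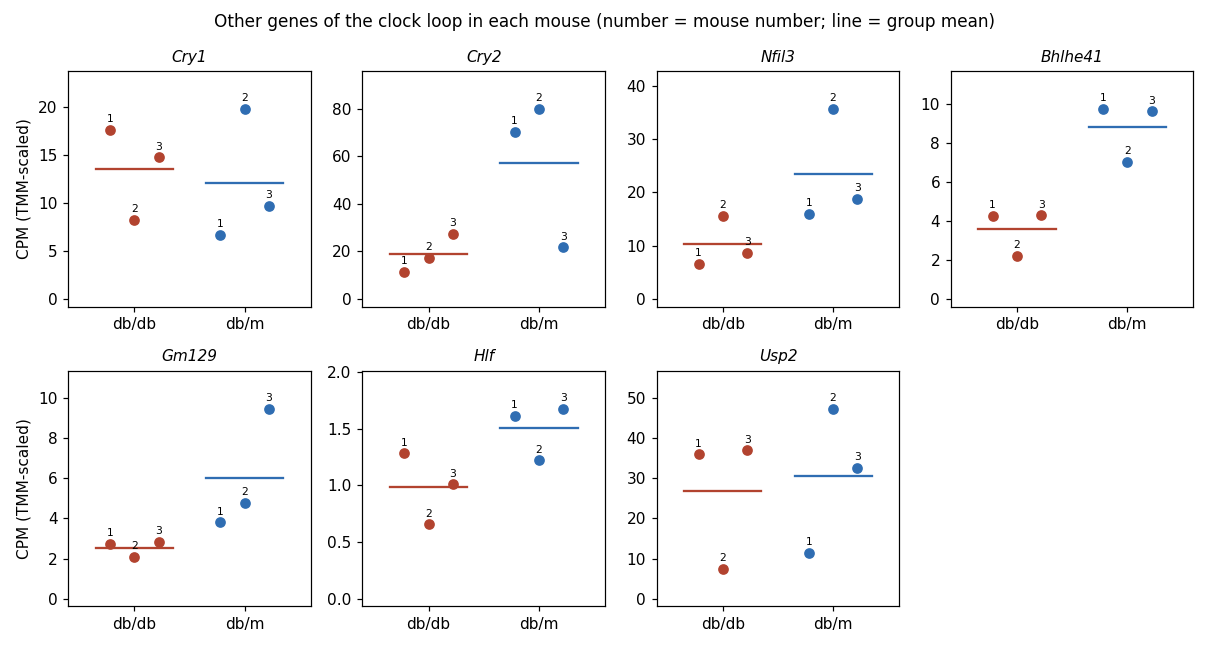
Level of 7 other genes of the clock loop in each mouse, in CPM after TMM scaling, with db/db mice in red and db/m mice in blue. Points are single mice with their numbers and lines are group means. Bhlhe41, Gm129 and Nfil3 are lower in all db/db mice, and Cry2 is at 70.4 and 79.9 CPM in db/m mice 1 and 2 and at 21.8 CPM in db/m mouse 3.

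The kinase genes Csnk1d and Csnk1e, whose products mark PER proteins for decay, had 24.9 to 39.0 CPM and 4.55 to 9.49 CPM over the 6 mice. The repressor gene Bhlhe40 had 5.14 to 13.0 CPM. Arntl2, a paralog of Arntl, had 0.241 to 1.68 CPM, and Fbxl21 and Timeless had at most 1.38 and 1.06 CPM. None of these 6 had an unadjusted p under 0.05. Rora, Rorb and Btrc had between 0 and 13 counts and were not tested.

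Per1 and Per2 are known to respond to glucocorticoid hormones and to cAMP as well as to the clock, and lists of genes that respond to each were set beside them. Of 14 tested glucocorticoid-responsive genes, 3 were lower (9.89% of all tested genes) and 3 higher (5.04%) in db/db mice at an unadjusted p under 0.05, with a median log2 fold change of -0.04. The 3 with the smallest p were Dusp1, a phosphatase gene that is also an immediate-early gene (log2 fold change -2.97, adjusted p = 0.0157 from edgeR), Lcn2, which encodes an iron-binding acute-phase protein (1.88, adjusted p = 0.0902), and Ddit4, an inhibitor of mTOR (-1.12, adjusted p = 0.211). Nr3c1, the glucocorticoid receptor gene, had 38.7 to 57.3 CPM in db/db mice and 37.8 to 61.2 CPM in db/m mice. Of 25 tested immediate-early and cAMP-responsive genes, 20 were lower in db/db mice at an unadjusted p under 0.05 (9.89% of all tested genes) and 0 higher (5.04%), 11 had an adjusted p under 0.05 by edgeR (0.619%), and the median log2 fold change was -2.33. The 3 with the smallest p, Fosb, Fos and Egr1, had log2 fold changes of -5.54, -4.46 and -3.89 (adjusted p at most 0.00416 from edgeR). Per1 was highest in db/m mouse 2, as were Fos, Fosb and Egr1 at 296, 269 and 194 CPM. Among db/db mice Per1 was lowest in mouse 2, as was Fos at 7.1 CPM, whereas Fosb was highest there at 5.26 CPM. Egr1 in that mouse, at 10.5 CPM, lay between the other db/db mice. The part of the immediate-early response in the lower Per1 of db/db mice was not tested.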

How the data were processed

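RNA-seq reads of islets from 3 db/db and 3 db/m mice were mapped to mm10 by the authors, who deposited raw counts per gene symbol without normalization, 1 column per mouse. The methods name TopHat and the submitters' processing notes name HISAT2 2.0.4. The counting program, annotation and use of strand are not given in the sources used here. Columns were matched to mice by the labels, and groups were taken from the titles. Library totals (15641797 to 20614531 counts) set the precision, and intervals and the floor of 3 counts cover counting error alone.

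The fits used edgeR 4.0.16 under R 4.3.3 (low counts removed by filterByExpr, TMM factors, quasi-likelihood test, Benjamini-Hochberg adjustment over 12760 genes, threshold 0.05). Each SE was taken from the F statistic, as the fold change on the log2 scale over the root of F. DESeq2 1.42.0 was an alternative, and the fits were tested on simulated data. Ratios within a mouse used 0.5 added counts and two-sided exact permutation tests. The clock genes and all lists were chosen with earlier results of these data known. Named genes were the 10 clock genes, the other listed genes of the loop (some genes of the loop are not reported here), genes overlapping them, and the 3 genes with the smallest p of the glucocorticoid and immediate-early lists. Nr3c1, the per-mouse ratios to Clock and the likeness of the mice numbered 2 were chosen after values were seen. Positions and exon lengths came from GENCODE M21 (GRCm38), and figures were drawn with matplotlib 3.10.9 in Python 3.11.15. The alternatives were other scaling factors, other filters, genes at 1% or more of a library left out, the replicate number as a block, marker scores (mean log2(CPM + 1)) as covariates, and each mouse left out. Leaving out both mice numbered 2 was added after seeing the data. Mice within a group differed well beyond sampling noise (chi-square over its degrees of freedom, 26.5 to 147), so that no library was a copy of another. With 1 library per mouse, p-values of the fits set the difference between groups against the spread between mice. That spread is estimated with information shared across genes. The permutation p-values rank the difference among all arrangements of the mice.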

Additional observations from a re-analysis of the deposited data

How the results depend on the processing

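With 1 sampling per mouse at an hour that is not given, depth limits Npas2, and both depth and the spread between mice limit Arntl. For the other genes except Clock the limit is the spread between mice, and the value of Clock rests on the scaling. Correlations across genes of the residuals of mice with equal numbers were -0.53, -0.20 and -0.33, so the numbers were not taken as pairs. With the replicate number as a block, 16 genes had an adjusted p under 0.05 (12 lower) in place of 79 (62 lower), and the numbers of clock genes and other loop genes at an unadjusted p under 0.05 stayed at 2 and 4. DESeq2 gave 707 genes (559 lower), with 1 clock gene and 2 other loop genes, where Nr1d1 was at -1.89, Cry2 at -1.61 and Bhlhe41 at -1.29. No filter gave 888 (739 lower), with 2 clock genes and 3 other loop genes past the adjusted threshold, and Per1 at -1.07, Nr1d1 at -1.90, Cry2 at -1.60, Nfil3 at -1.19 and Bhlhe41 at -1.30. Library size alone gave 21 (15 lower) and turned Clock to -0.44, Nr1d2 to -0.57 and Cry1 to -0.38, and upper-quartile factors gave 52 (38 lower). The endocrine score gave 39 (25 lower), left 2 other loop genes lower and 1 higher at an unadjusted p under 0.05, and turned Arntl to 1.66, Clock to -0.086, Nr1d2 to -0.97 and Cry1 to -0.40. The acinar score left 1 clock gene lower and 1 other loop gene higher, and turned Arntl to 0.31, Clock to -0.11, Nr1d2 to -0.75 and Cry1 to -0.54. Leaving out single mice or both mice numbered 2, a setting in which Arntl could not be fitted, gave 5 (both mice numbered 2) to 333 genes (3 to 290 lower), 0 to 1 clock genes and 0 to 1 other loop genes past the adjusted threshold, and, at an unadjusted p under 0.05, 1 to 2 clock genes lower, 2 to 4 other loop genes lower and 0 to 1 higher. Without db/m mouse 2 Nr1d1 was at -2.34, and without db/m mouse 3 Cry2 was at -1.99. Fold changes that turned when mice were left out ranged from -2.12 to 0.64 for Arntl, -0.016 to 0.23 for Clock, -0.87 to 0.39 for Per2, -0.44 to 0.27 for Per3, -0.46 to 0.66 for Nr1d2, -1.16 to 0.33 for Dbp, -0.79 to 0.73 for Tef, -0.11 to 1.01 for Cry1 and -0.56 to 0.77 for Usp2. Without both mice numbered 2, Tef was at 0.01. Log2 ratios to Arntl ranged from -2.53 to 0.81 for Per1, -2.42 to 1.57 for Per2, -1.64 to 2.17 for Per3, -3.37 to 0.84 for Nr1d1, -1.57 to 2.48 for Nr1d2, -2.32 to 2.21 for Dbp and -1.43 to 2.56 for Tef. The ratio of Per3 was -0.0047 with 1 count added and -0.057 with 2 counts added, and with Clock as denominator Per3 was at -0.32, Nr1d2 at -0.088 and Tef at -0.13. The causes were not tested. Fold changes of Per1, Nr1d1, Cry2, Nfil3, Bhlhe41, Gm129 and Hlf kept their sign under every setting run.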

Other observations

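Paralog ratios within a mouse, chosen after the values were seen, differed most between single mice. Counts of Per2 relative to Per1 were 0.956, 0.295 and 0.969 in db/db mice 1, 2 and 3 and 0.341, 0.551 and 0.651 in db/m mice 1, 2 and 3. Counts of Nr1d1 relative to Nr1d2 were 0.0878, 0.385 and 0.0898 in db/db mice and 1.01, 0.204 and 0.383 in db/m mice. The ratios of db/db mice 1 and 3 were nearly equal to each other in both pairs, at 0.956 and 0.969 for the Per genes and 0.0878 and 0.0898 for the receptor genes. Counts of Per2 relative to Nr1d2 lay between 0.328 and 0.820 in 5 mice and at 2.08 in db/m mouse 2.

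Some glucocorticoid-responsive genes, also picked after their values were seen, varied between mice of a group as some clock genes did. Their pattern was not that of Per3, Nr1d2, Dbp and Tef. Fkbp5, which encodes a co-chaperone of the glucocorticoid receptor, had 78.3, 20.7 and 99.0 CPM in db/db mice and 34.7, 175 and 26.3 CPM in db/m mice. Hif3a had 7.79, 2.21 and 14.1 CPM in db/db mice and 2.39, 21.96 and 2.38 CPM in db/m mice. In both genes db/db mouse 2 was the lowest of its group and db/m mouse 2 the highest of its group, as in Per1, Per2, Cry1 and Usp2. Of the other tested genes of that list, Dusp1, Errfi1, Klf9, Mt1, Mt2, Pdk4 and Tsc22d3 had this pattern. Cdkn1a, Ddit4, Lcn2, Nr3c1 and Zbtb16 did not, and the likeness was not tested. The share of all tested genes with this pattern was not counted, so it cannot be called particular to this list or to the clock genes.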
